A study of Mus musculus with 185 samples.

Results

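Thyroid hormone activation, transport and response in the mouse brain are described here through 7 genes chosen by name: Dio2, Dio3, Thra, Thrb, Klf9, Hr and Nrgn, out of 57010 genes in the count matrix. The choice was made with earlier results of these data known. Bulk RNA-seq was done on 5 brain regions of each of 37 mice, all male, 8 weeks old and of the inbred strain C57BL/6 J. In the 16 h study, pair-housed mice stayed on chow (6 mice), were switched to a high-fat diet (HFD, D12331; 6 mice) or were fasted (6 mice), with 3 cages per diet. In the 24 h study, single-housed mice stayed on chow (9 mice) or were fasted (10 mice). Hypothalamus, hippocampus, superior colliculus and inferior colliculus were taken in both studies, with frontal cortex as the fifth region at 16 h and zona incerta at 24 h. Outside the hypothalamus, a single hemisphere was sequenced, left or right at 16 h and left only at 24 h. Study duration, time of day at the start, housing, sequencing run, read length, choice of hemisphere and the fifth region change together. These cannot be told apart between the studies.

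Thyroid hormone circulates mostly as thyroxine, a prohormone that Dio2, the type 2 deiodinase, converts into the active form, triiodothyronine. Dio2 is known mainly from astrocytes and from the tanycytes that line the third ventricle, and fasting is known to raise it in the rodent hypothalamus. Dio3, the type 3 deiodinase, inactivates both forms. Thra and Thrb encode the nuclear receptors that bind triiodothyronine, and Klf9, Hr and Nrgn are known targets of the hormone in brain: Klf9 is a zinc finger transcription factor, Hr (hairless) a corepressor and Nrgn (neurogranin) a calmodulin-binding protein of forebrain neurons. Klf9 is also a known target of the glucocorticoid receptor.

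The headings of the matrix name the mouse and not the region of a column, so values are for the sum of the 5 columns of a mouse as CPM (counts divided by the mouse total and multiplied by 1000000), and no result is given by region. Mouse sums held 57962237 to 161577364 counts. Of the 5 columns per mouse, 27 in all were low (under 1000000 counts, or under 16000 genes expected in a draw of 500000 counts). Of the low columns, 11 were in 24 h chow mice and 12 in 24 h fasted mice. In the longer experiment, the study detected no RNA in a block of libraries and sequenced it on a separate flowcell. The study discarded that block as defective and excluded other libraries for few aligned reads. All these columns stay in the sums here, so the sums of most 24 h mice mix flowcells. According to the sample notes, the superior colliculus tubes of chow mouse 1423 and fasted mouse 1454 were exchanged. The methods of the study describe a correction of the sample table for this exchange, and whether the headings of the matrix carry it is not stated. In the deposited table of libraries, the read file listed for the superior colliculus of mouse 1423 bears the number of fasted mouse 1455 and the reverse, so mouse 1455 is left out with them. The sum of fasted mouse 1445 stood apart in 5 striatal marker genes (Drd1, Drd2, Adora2a, Ppp1r1b and Rgs9, a list chosen after the values had been seen), which came to 1651 CPM in that mouse and to at most 181.6 CPM in the other 36. Results that rest on these mice are given with and without them below. None of the marker lists of brain cell types had a gene at 0 in every mouse. In bulk tissue, fewer cells of a type and less RNA per cell cannot be told apart.

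Thra was the highest and Dio3 the lowest of the 7 genes per kilobase of exon in every group. The group medians of Thra were 42.3 to 46.1 CPM per kb. Klf9 (18.6 to 29.9 CPM per kb) and Nrgn (20.4 to 28.6 CPM per kb) were next in every group. Hr (6.98 to 14.1), Dio2 (5.63 to 9.96) and Thrb (3.83 to 7.56 CPM per kb) were lower and kept no single order: Hr was above both at 24 h, but in 16 h HFD mice it was the lowest of these 3 (6.98, against 8.47 for Dio2 and 7.56 for Thrb). Dio3 had 0.112 to 0.277 CPM per kb, from 11 to 187 counts in a mouse. Along the order of the 5 group medians of CPM, neighbouring groups overlapped in range for each of the 7 genes.

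**Figure D1:**
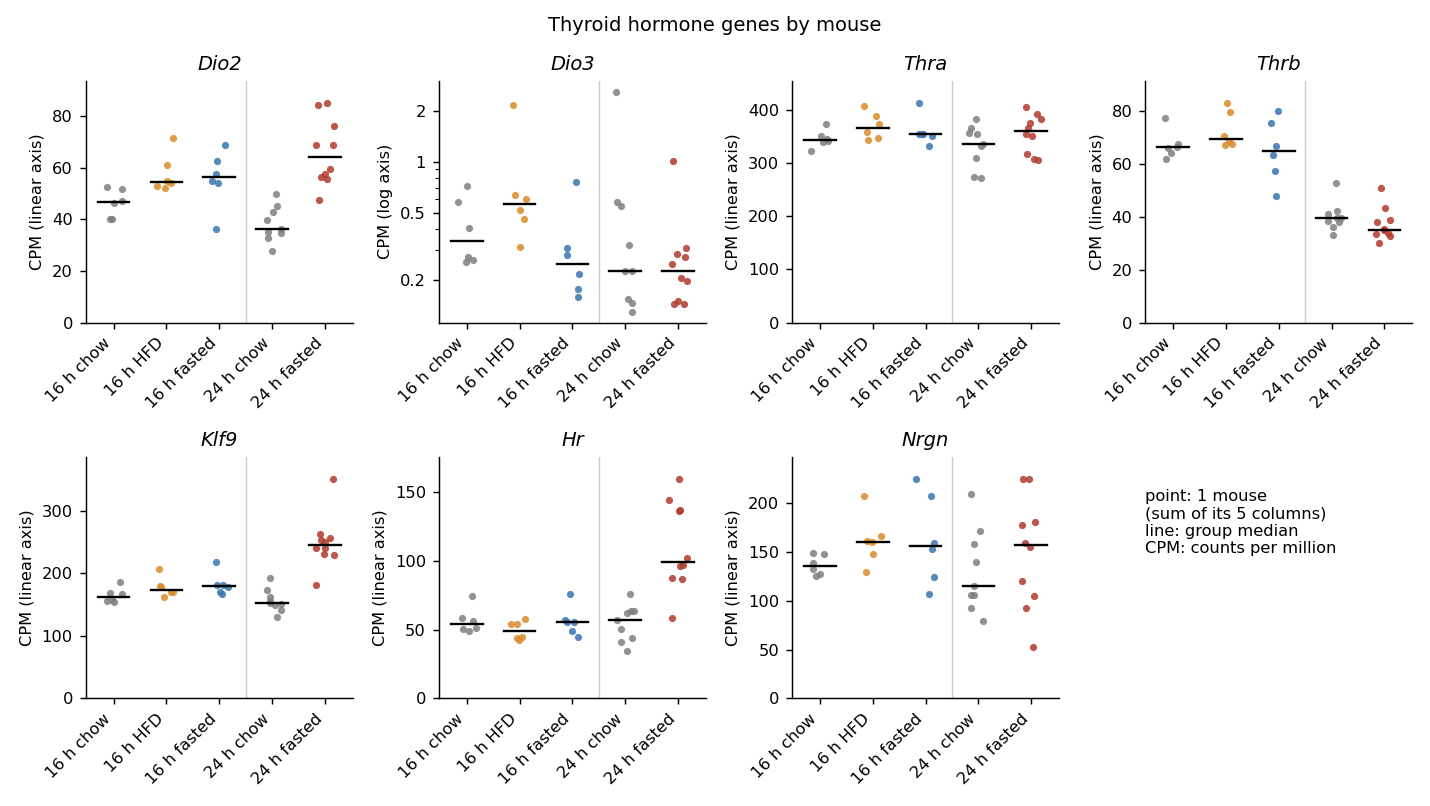
CPM of the 7 genes in each mouse (sum of 5 columns; y axis linear from 0, logarithmic for Dio3), by diet and study; points are mice and lines are group medians. At 24 h the fasted mice lie above nearly all chow mice for Dio2, Klf9 and Hr, with 9 of 10 above the highest chow mouse for each gene.

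After 24 h of fasting, 3 of the 7 genes rose and none fell: Hr 2.11-fold, Dio2 1.79-fold and Klf9 1.65-fold. The deiodinase that activates the hormone and 2 of the 3 hormone targets were higher, while the receptors Thra and Thrb, the inactivating deiodinase Dio3 and the target Nrgn did not pass the test. Over all genes tested, 3307 of 29011 (11.4%) were called in either direction and 1676 (5.78%) were called higher. Since the 7 genes were chosen with earlier results known, these shares are given beside them and not as a test. The median log2 fold change was 0.24 over the 7 genes and -0.004 over all genes tested. The same 3 of 7 were called in each of 7 other settings and when any 1 of the 19 mice was left out. The split of called genes was 1676 higher and 1631 lower in the edgeR test of sums, and 876 higher and 2208 lower with limma on the mean log2 CPM of the kept columns, where Hr, Dio2 and Klf9 had log2 fold changes of 0.90, 0.76 and 0.60. That setting changes the test, the scale, the columns used and their weight together.

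Dio2 (ENSMUSG00000007682; GRCm39 chr12:90691322-90705819, reverse strand) was at 27.8 CPM in the lowest, 36.2 in the median and 50.0 in the highest of 9 chow mice at 24 h. In the 10 fasted mice it was at 47.4, 64.02 and 84.99 CPM. All 10 fasted mice were above the chow median, and the groups overlapped in 1 mouse each way: fasted mouse 1425 at 47.4 CPM lay below chow mouse 1422 at 50.0 CPM. The log2 fold change was 0.84 ± 0.13 (SE; edgeR adjusted p = 0.000251). Over 7 other settings it lay between 0.76 and 0.87, with adjusted p from 3.1e-07 to 0.00171. Without mice 1423, 1454 and 1455, it was 0.85. The 24 h fasted mice also had the highest median of the 5 groups and the 24 h chow mice the lowest (36.2 CPM, against 46.8 CPM in 16 h chow mice).

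The upstream 250 bases of Dio2 and Klf9 are shown because these genes were both called at 24 h. They are RefSeq sequences of GRCm38.p6 (Dio2 at chr12:90739039-90739288, reverse strand; Klf9 at chr19:23140976-23141225, forward strand), 5′ to 3′, ending at the base before the annotated start. Capitals mark the cAMP response element TGACGTCA, a palindrome bound by CREB-type factors.
Dio2: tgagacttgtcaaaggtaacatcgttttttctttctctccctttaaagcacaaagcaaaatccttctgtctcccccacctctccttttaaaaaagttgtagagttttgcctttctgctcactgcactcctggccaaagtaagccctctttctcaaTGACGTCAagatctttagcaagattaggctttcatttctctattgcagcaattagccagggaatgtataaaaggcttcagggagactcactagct
Klf9: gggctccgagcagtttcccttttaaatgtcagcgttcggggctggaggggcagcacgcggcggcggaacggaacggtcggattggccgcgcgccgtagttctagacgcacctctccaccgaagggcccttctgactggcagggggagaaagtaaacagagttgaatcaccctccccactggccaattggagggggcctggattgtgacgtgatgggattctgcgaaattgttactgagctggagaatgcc
Klf9 held none. Dio2 held 1 such element, whose first base lies 95 bases before the start, and 1.55% of 32851 mouse promoter windows of this length held one. Neither window held AGGTCA, the hexamer bound by thyroid hormone receptors, or AGAACA, part of the glucocorticoid receptor site, on either strand; 14.0% and 16.1% of all windows held these. A match describes letters in this window and no binding was measured. Windows of 5 of the 7 genes were in the table used; Hr and Thra were not analysed here. Of the windows not shown, 1 of Thrb held 1 AGGTCA and the other of Thrb held 2 AGAACA, counting both strands. Those of Dio3 and Nrgn held no such match.

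Dio3 (ENSMUSG00000075707; chr12:110245502-110247531, a single exon on the forward strand) was low at 24 h, at 0.13, 0.227 and 2.58 CPM in chow mice (lowest, median, highest) and at 0.144, 0.226 and 1.00 CPM in fasted mice. The medians were equal to within 0.001 CPM and the groups overlapped fully. The log2 fold change of -0.72 ± 0.52 (SE; edgeR adjusted p = 0.447) rested on chow mouse 1443, the highest of all mice, and was 0.09 without it. In that mouse 1 column held 12.5 CPM and the next highest 0.253 CPM. The study flagged 1 of its libraries in the principal component analysis. Dio3os, a noncoding RNA gene that lies next to Dio3 on the opposite strand without overlap, had a log2 fold change of -0.80 ± 0.28 (edgeR adjusted p = 0.074).

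Neither receptor gene passed the test at 24 h. Thra (ENSMUSG00000058756; chr11:98629109-98661924, forward strand) was at 272, 336 and 383 CPM in chow mice and at 306, 361 and 405 CPM in fasted mice of the 24 h study. The ranges overlapped, with 3 fasted mice above the highest chow mouse. Its log2 fold change was 0.16 ± 0.08 (SE; edgeR adjusted p = 0.253), and it was -0.01 with limma on column means. Exons of Thra share 1694 bases with the clock gene Nr1d1 on the other strand, and the strand of the counts is not stated; Nr1d1 had a log2 fold change of -0.24 (adjusted p = 0.0843).

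Thrb (ENSMUSG00000021779; chr14:4429815-4809435, reverse strand) was at 33.2, 39.4 and 52.7 CPM in chow mice and at 30.0, 35.2 and 50.7 CPM in fasted mice at 24 h. No fasted mouse exceeded the highest chow mouse, and the log2 fold change was -0.06 ± 0.08 (SE; edgeR adjusted p = 0.744). In the 16 h study its group medians were higher, from 64.9 to 69.5 CPM. That contrast between studies was not tested, since the fifth region also differs.

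Klf9 (ENSMUSG00000033863; chr19:23118187-23148497, forward strand) was at 130.1, 152.9 and 192 CPM in chow mice at 24 h. In fasted mice it was at 180.8, 245 and 352 CPM. Again 10 of 10 fasted mice were above the chow median and 9 above the highest chow mouse. Mouse 1425, lowest of the fasted mice for Dio2, was also the lowest for Klf9 (180.8 CPM), and chow mouse 1422 was the highest chow mouse for both genes. The log2 fold change was 0.72 ± 0.11 (SE; edgeR adjusted p = 9.5e-05), from 0.60 to 0.76 over 7 other settings with adjusted p from 1.5e-08 to 0.00055.

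Hr (ENSMUSG00000022096; chr14:70789652-70811002, forward strand) had the largest change of the 7. It was at 34.3, 56.98 and 76.2 CPM in chow mice and at 58.6, 99.3 and 159.9 CPM in fasted mice. The log2 fold change was 1.08 ± 0.19 (SE; edgeR adjusted p = 0.000531), from 0.90 to 1.17 over 7 other settings with adjusted p from 8.8e-07 to 0.00202. The overlap came from fasted mouse 1445, at 58.6 CPM below 4 chow mice; the next lowest fasted mouse was at 86.9 CPM, above every chow mouse. Hr, Dio2 and Klf9 thus overlapped between diets in 1 fasted mouse each. Over all genes tested, every fasted mouse lay above every chow mouse in 207 (0.714%).

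Mouse 1445 was the highest fasted mouse for Klf9 (352 CPM, the next at 264 CPM) and the lowest for Hr. Its striatal markers came from 2 of its 5 columns, at 2539 and 2012 CPM summed, against at most 307 CPM in any kept column of the other mice. Those columns had Klf9 at 428 and 389 CPM and Hr at 35.4 and 54.5 CPM. In its other 3 columns Klf9 was at 135 to 239 CPM and Hr at 81.4 to 96.4 CPM. Without mouse 1445 the log2 fold changes at 24 h were 1.15 for Hr, 0.84 for Dio2 and 0.66 for Klf9, all with an edgeR adjusted p of at most 0.000434.

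**Figure D2:**
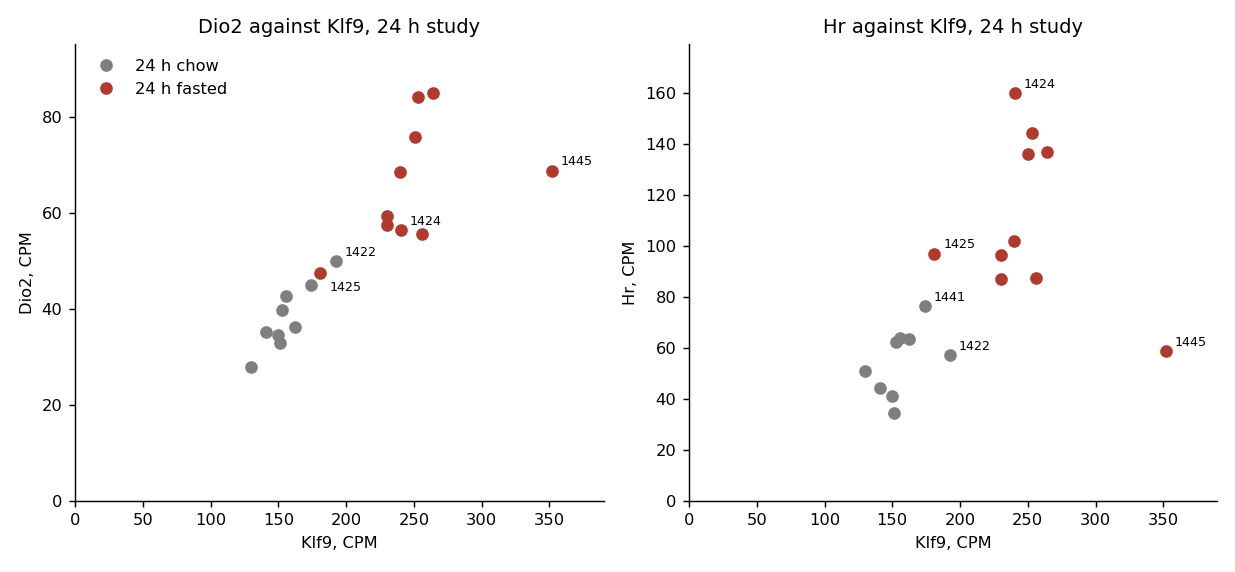
Dio2 (left) and Hr (right) against Klf9 in CPM per mouse, 24 h study, linear axes from 0; grey points are chow mice and red points fasted mice, with 5 mice numbered. Mouse 1425 lies among the chow mice for Dio2 and Klf9, and mouse 1445 lies apart at 352 CPM of Klf9 and 58.6 CPM of Hr.

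Among the 10 fasted mice, Dio2, Klf9 and Hr did not follow 1 order. Mouse 1435 had the highest Dio2 (84.99 CPM), mouse 1445 the highest Klf9 and mouse 1424 the highest Hr (159.9 CPM), while mouse 1424 was in place 8 for Dio2 (56.4 CPM). Centred on the diet means over 19 mice, Pearson's r was 0.67 between Dio2 and Klf9, 0.44 between Dio2 and Hr and -0.06 between Klf9 and Hr. Without mouse 1445 (18 mice, a choice made after seeing the data) these values were 0.80, 0.58 and 0.44, so the value near 0 for Klf9 and Hr rested on that mouse. The mice differ in depth and in how much each region adds to a sum, and these values are a description.

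Nrgn (ENSMUSG00000053310; chr9:37452275-37464689, reverse strand) varied most between mice of 1 diet among the targets, at 79.2 to 209.7 CPM in the 9 chow mice (mean 130.9 ± 42.3 SD) and 52.5 to 224.7 CPM in the 10 fasted mice (mean 149.3 ± 56.5 SD) at 24 h. The groups overlapped over nearly the whole range. The log2 fold change was 0.24 ± 0.24 (SE; edgeR adjusted p = 0.61), and it was -0.27 with limma on column means. Forebrain excitatory neuron markers (Slc17a7, Camk2a, Neurod6 and Prox1) also ranged widely, from 848 to 2853 CPM summed in chow mice and from 697 to 2395 CPM in fasted mice, with none of the 4 called. Nrgn exons share 1219 bases with Vsig2 on the opposite strand, whose log2 fold change was 0.33 (adjusted p = 0.194).

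After 16 h, fasting and HFD left all 7 genes short of the threshold. No gene of 29746 was called by edgeR in either comparison (0%), with 2267 genes at an unadjusted p under 0.05 after fasting and 2914 on HFD. DESeq2 called 19 and 5 genes, none of the 7 among them. The median log2 fold change of the 7 genes was 0.08 after fasting and 0.14 on HFD, against -0.003 and -0.008 over all genes tested. Both comparisons share the 6 chow mice, so their values for a gene are given side by side and not as independent.

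Dio2 was at 40.2, 46.8 and 52.6 CPM in 16 h chow mice (lowest, median, highest). It was at 36.3, 56.2 and 68.6 CPM after fasting and at 52.1, 54.4 and 71.6 CPM on HFD. In each of these diets 5 of 6 mice were above the highest chow mouse, but 1 fasted mouse (mouse 9) was the lowest of all 18. The study flagged 1 library of mouse 9 and 1 of HFD mouse 13, the highest, in its principal component analysis. Libraries of other mice in each diet were flagged as well, and their part in this spread was not tested. The log2 fold changes were 0.29 ± 0.13 after fasting (SE; edgeR adjusted p = 0.638) and 0.35 ± 0.13 on HFD (adjusted p = 0.503).

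Klf9 was at 154.1, 162.3 and 186.5 CPM on chow, at 167.4, 180.4 and 218 CPM after 16 h of fasting and at 162.2, 174.1 and 207 CPM on HFD. All 6 fasted mice lay above the chow median and 1 above the highest chow mouse. The log2 fold changes were 0.17 ± 0.08 (edgeR adjusted p = 0.628) and 0.14 ± 0.08 (adjusted p = 0.547). Hr was at 49.2, 53.9 and 74.7 CPM on chow, at 44.6, 55.5 and 76.1 CPM after fasting and at 42.4, 49.3 and 57.7 CPM on HFD. Its ranges overlapped, with log2 fold changes of 0.00 ± 0.12 after fasting (adjusted p = 0.999) and -0.17 ± 0.12 on HFD (adjusted p = 0.641).

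For the receptors at 16 h, the log2 fold changes of Thra were 0.08 ± 0.06 after fasting and 0.13 ± 0.06 on HFD, and those of Thrb were -0.03 ± 0.10 and 0.14 ± 0.10. Nrgn had 0.28 ± 0.16 in each comparison, and 4 of 6 fasted and 4 of 6 HFD mice lay above the highest chow mouse. Dio3 had -0.28 ± 0.49 after fasting and 0.93 ± 0.46 on HFD, where HFD mouse 18 stood at 2.16 CPM and the other 5 HFD mice at 0.314 to 0.636 CPM. The edgeR adjusted p of these 4 genes ranged from 0.513 to 0.964.

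**Figure D3:**
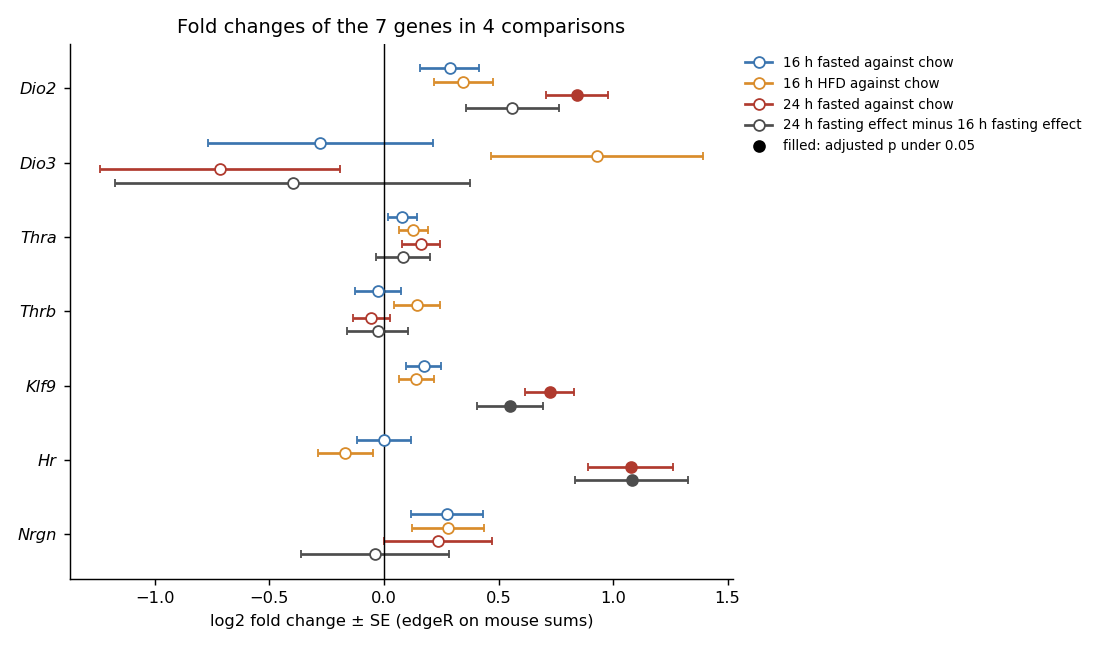
Log2 fold change with standard error (x axis) of the 7 genes (y axis) in 3 diet comparisons and in the difference of the 2 fasting effects; filled points have an edgeR adjusted p under 0.05. Filled points are Dio2, Klf9 and Hr at 24 h and Klf9 and Hr for the difference between the studies.

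Tested directly over all 37 mice, the fasting effect was larger at 24 h than at 16 h for Hr and Klf9. The difference of the log2 fold changes was 1.08 ± 0.25 for Hr (SE; edgeR adjusted p = 0.0118) and 0.55 ± 0.14 for Klf9 (edgeR adjusted p = 0.0344). For Dio2 it was 0.56 ± 0.20 (adjusted p = 0.203), which did not pass, so the rise of Dio2 at 24 h is not shown to differ from its value at 16 h. The other 4 genes had differences from -0.40 to 0.08, each with an adjusted p of at least 0.923. Over all genes, 523 of 30849 (1.7%) were called and 295 (0.956%) were called higher. Klf9 lost its call without the low columns (0.53, adjusted p = 0.0541), and kept it without mouse 1445 (0.49, adjusted p = 0.0417).

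Within a mouse, the 5 columns differed, and the genes did so to unequal degrees. In the 5 chow mice of the 16 h study with all columns kept, the highest column held 18.9 times the lowest for Nrgn (median over mice), 6.65 times for Dio2, 3.12 times for Thrb, 3.05 times for Hr and 2.59 times for Klf9. For Thra it held 1.58 times the lowest, the smallest ratio of the 6 genes other than Dio3. Nrgn fell into 3 columns of 151.7 to 304 CPM and 2 of 17.8 to 22.6 CPM (medians by place within the mouse), and Dio2 dropped more evenly, from 84.8 through 67.2, 52.7 and 27.9 to 15.1 CPM. Thrb had 1 column apart, at 123.5 CPM against 74.5 CPM in the next.

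**Figure D4:**
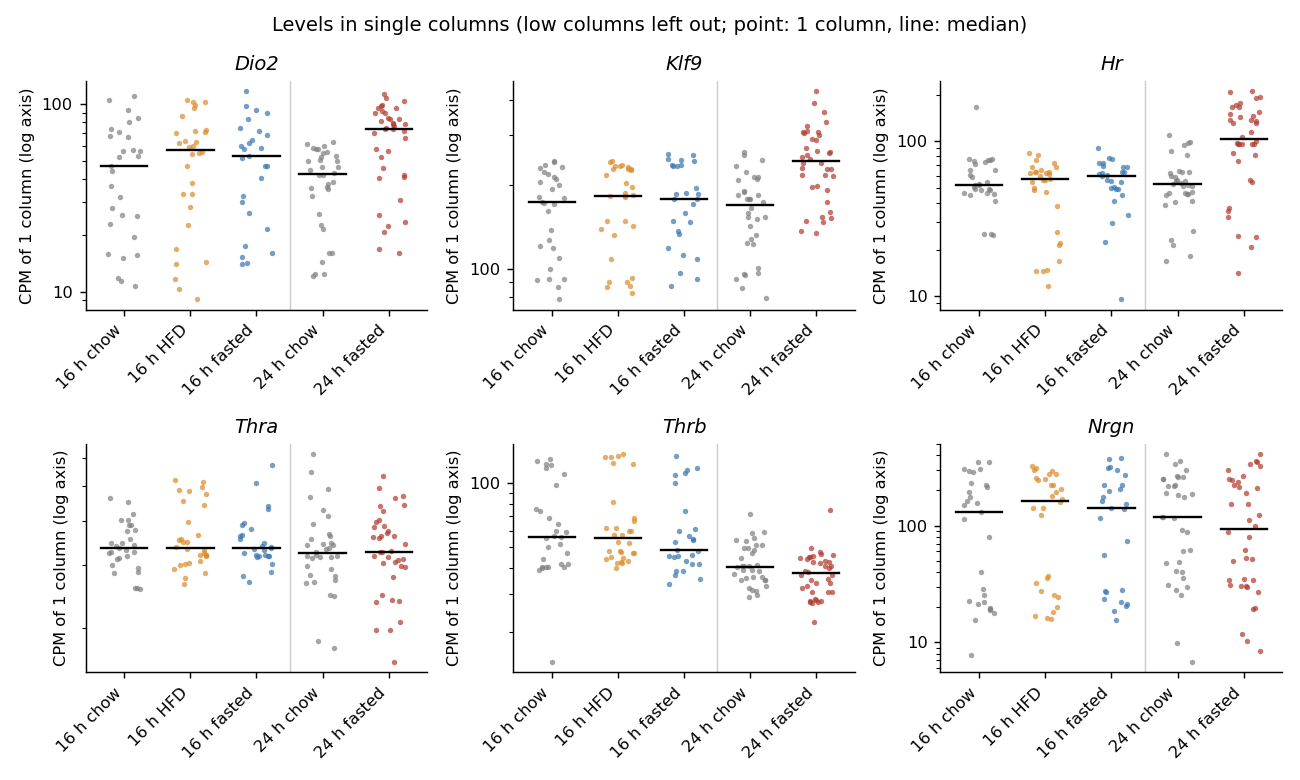
CPM (logarithmic y axis) of 6 genes in each kept column by diet and study; points are columns, which are not replicates, and lines are medians. Most Klf9 and Hr columns of fasted 24 h mice (31 of 38 each) lie above the chow median, though 1 Hr column of a fasted mouse lies below every chow column, while Thra medians are nearly level over the 5 groups.

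Over single columns at 24 h, 31 of 38 fasted columns lay above the chow median for Klf9 and for Hr, and 28 of 38 for Dio2. Column medians were 170 against 243 CPM for Klf9, 52.6 against 102.9 CPM for Hr and 42.5 against 74.1 CPM for Dio2 (34 chow and 38 fasted columns). The lowest fasted column of Klf9 (135 CPM) was above 11 of the 34 chow columns. For Dio2, 24 fasted columns were above the highest chow column, and the lowest fasted column was above 6 chow columns. For Hr, 18 fasted columns were above the highest chow column, but 7 were not above the chow median and the lowest fasted column (14.1 CPM) was below every chow column (lowest 16.8 CPM). If the columns stand in the order of the sample list, 1 kept column each of mice 1422, 1434 and 1445 came from the discarded block. These include the lowest fasted column of Klf9 and the lowest chow column of Hr. Columns of 1 mouse are not replicates and these counts were not tested.

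The mice with exchanged tubes were set beside the others by a score. This score of 7 glucocorticoid-responsive genes (Fkbp5, Sgk1, Tsc22d3, Per1, Cdkn1a, Ddit4 and Zbtb16) ran from -1.24 to -0.52 in 30 chow columns and from 0.08 to 1.77 in 30 fasted columns of other mice. Chow mouse 1423 had 1 column at 0.58, and fasted mouse 1454 had 1 column at -1.11. The first held Dio2 at 62.5, Klf9 at 244 and Hr at 98.1 CPM, and the second held them at 40.3, 173.7 and 55.9 CPM. The column of mouse 1423 was above its other 3 kept columns for Dio2 (16.2 to 46.0 CPM) and Hr (46.0 to 51.6 CPM) and inside their range for Klf9 (101.3 to 260.6 CPM). The column of mouse 1454 was inside the range of its other 3 for Dio2 (22.6 to 84.5 CPM), Klf9 (153.95 to 306 CPM) and Hr (23.9 to 136.98 CPM). These columns were picked by their score, so their values are a description. By the order of the sample list, the column of mouse 1423 falls on its superior colliculus. That of mouse 1454 falls on its inferior colliculus, which was not the exchanged tube. The headings name no region, so whether these columns are the exchanged pair is not settled here. No score is given for mouse 1455. Without mice 1423, 1454 and 1455, Hr had a log2 fold change of 1.17, Dio2 of 0.85 and Klf9 of 0.76 at 24 h, with edgeR adjusted p of at most 0.00171.

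Of 42 other genes of thyroid hormone transport, binding, deiodination, receptor partnership, the thyroid axis and target response, 41 passed the filter on low counts, with Dio1 left out. At 24 h 1 of the 41 rose and none fell, beside 11.4% called over all genes tested. This list too was chosen with earlier results known, so the shares are not compared by a test. It was Slc7a5, which encodes the amino acid transporter LAT1 that also carries thyroid hormones. Slc7a5 was at 43.6, 49.8 and 58.3 CPM in chow mice and 55.1, 70.3 and 87.9 CPM in fasted mice, with 9 of 10 fasted mice above the highest chow mouse. Its log2 fold change was 0.51 ± 0.06 (SE; edgeR adjusted p = 1.6e-05).

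Slco1c1, the organic anion transporter OATP1C1 known for carrying thyroxine, had a log2 fold change of -0.37 ± 0.16 (edgeR adjusted p = 0.159) and did not pass the test. The 10 receptor partners and cofactors had a median of 0.07, from -0.04 for Med1 to 0.59 for Rxrg, and none was called. Among them Rxra, a dimer partner of the receptors, was at 0.22 ± 0.08 (adjusted p = 0.0827). The 5 genes of the thyroid axis had a median of -0.007, with Trhr the lowest at -0.26. Trh, the highest, had 0.43 ± 0.52 (adjusted p = 0.677) in sums that hold the hypothalamus as 1 of 5 regions. The study excluded the hypothalamus library of some mice of both diets for few aligned reads, so the sums hold this region unevenly. Rasd2, a further hormone target, had 1.00 ± 0.41 (adjusted p = 0.131), with mouse 1445 at 624 CPM and every other mouse at or below 94.8 CPM. At 16 h, none of the 41 was called after fasting or on HFD, and none was called for the difference between the studies.

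**Figure D5:**
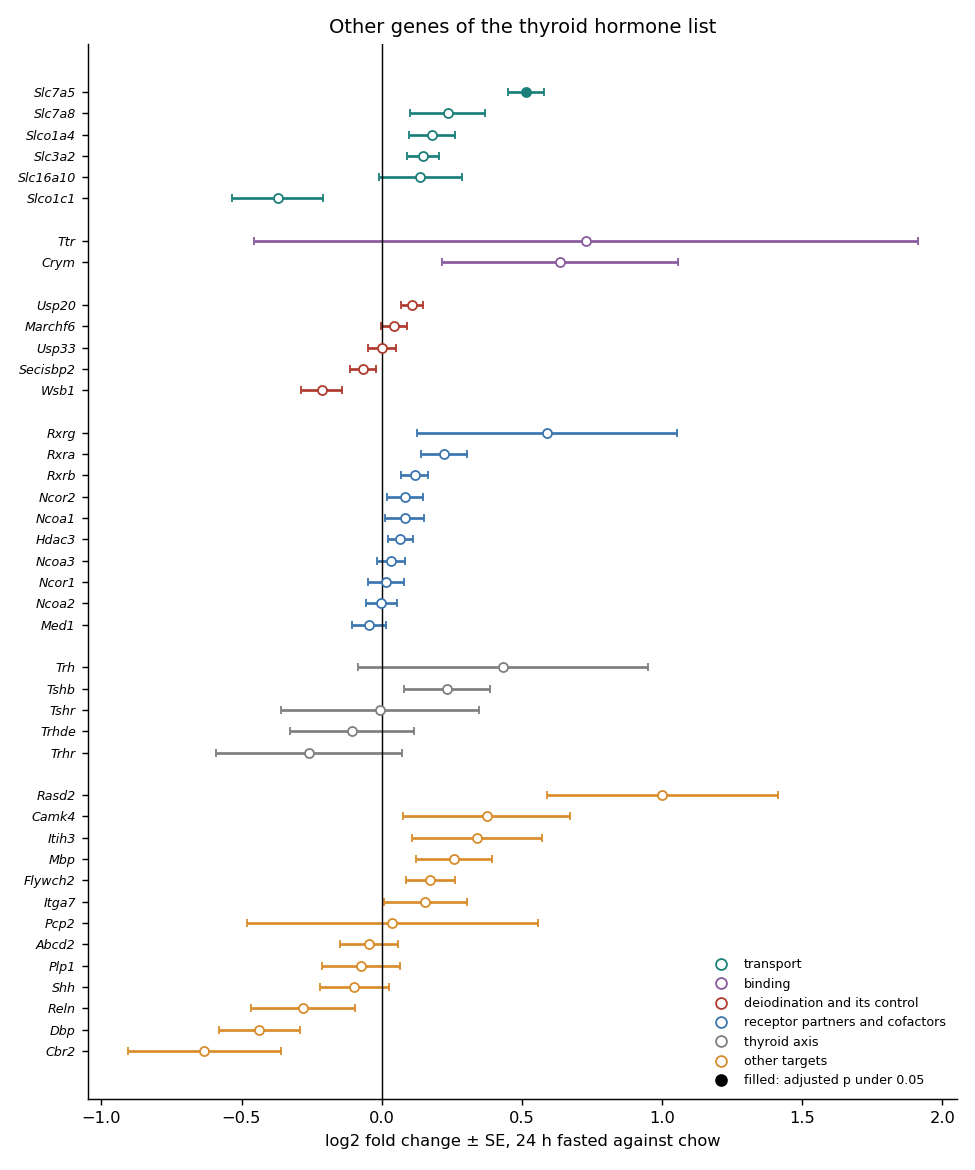
Log2 fold change with standard error (x axis) of 41 further genes of the thyroid hormone list (y axis, coloured by role) in fasted against chow mice at 24 h; the filled point has an edgeR adjusted p under 0.05. Slc7a5 is the only filled point at 0.51.

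Other gene groups moved at 24 h beside these results, and their part in them was not tested. All 7 glucocorticoid-responsive genes rose, and their summed level was 260 to 373 CPM in chow mice and 568.3 to 1015 CPM in fasted mice, with no overlap. At 16 h the same sum was 280.1 to 344 CPM on chow and 313 to 415 CPM after fasting, with none of the 7 called. Of 8 astrocyte markers, Gjb6 rose (log2 fold change 0.70) and Aqp4 and Gja1 fell (-0.85 and -0.25), while the sum was 3688 to 4588 CPM on chow and 3719 to 5225 CPM in fasted mice. None of the 3 tanycyte markers (Rax, Col23a1 and Gpr50) was called, with sums of 4.45 to 34.2 CPM on chow and 7.15 to 23.2 CPM in fasted mice. Of 3 endothelial markers, Cldn5 and Flt1 fell (-0.52 and -0.27). Of 4 oligodendrocyte markers, Mobp rose (log2 fold change 0.52, edgeR adjusted p = 0.0247) and Mog, Mag and Cnp were not called, with a list median of -0.20 and sums of 1064 to 1860 CPM on chow and 1094 to 2024 CPM in fasted mice. Of 6 hypothalamic neuropeptides, Agrp, the orexigenic peptide of the arcuate nucleus, rose (0.70, edgeR adjusted p = 0.0388), with sums of 9.33 to 173.5 CPM on chow and 28.98 to 234.5 CPM in fasted mice. As for Trh, the sums of tanycyte markers and neuropeptides hold the hypothalamus unevenly. No marker of inhibitory neurons, of midbrain and thalamic excitatory neurons or of choroid plexus was called.

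Over 37 mice, centred on the mean of each study, the gene most like Klf9 among 18846 was Kirrel2 (Pearson's r = 0.93), followed by Gpt2 (0.89) and Gpd1 (0.88). Dio2 was most like Ppp1r3g (0.87), Kirrel2 (0.85) and Klf9 itself (0.84), so that 2 of the 7 genes were near each other in this ranking. Hr was closest to Zbtb7b (0.89), Pdk2 (0.89) and Tsc22d3 (0.88), the last a glucocorticoid-responsive gene. Nrgn went with Chn1 (0.88), Inka2 (0.85) and R3hdm4 (0.85), and Thra with Map2k1 (0.84), Rnf2 (0.81) and Actr3 (0.80). Thrb was closest to Gm37266 (0.88), Pknox2 (0.88) and Gm37176 (0.85), and Dio3 to Hdac4 (0.75), Crtac1 (0.68) and Rbfox2 (0.66). Diet, depth and the mix of regions in a sum enter all of these values.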

How the data were processed

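RNA was extracted from micro-dissected tissue, depleted of rRNA and sequenced in paired reads. The authors aligned reads with STAR 2.7.3a to GRCm39 and deposited raw counts per Ensembl gene, without normalization or filter; the sample notes also list bcl2fastq 2.20.0 and R 4.1.3. Which annotation release was used, and which strand was counted, is not given in the sources used here. Gene names and exon lengths came from GENCODE vM39.

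The deposited counts have 5 columns per mouse, which were added up; tests by region were not run, because the headings give no region. All columns were kept in the sums, including low ones and those of libraries that the study discarded. The main test was the quasi-likelihood F test of edgeR 4.0.16 (R 4.3.3) with diet as the only term, after filterByExpr, TMM, estimateDisp and glmQLFit, with Benjamini-Hochberg adjustment over all genes tested and a threshold of 0.05. The 3 diets at 16 h shared 1 fit, and the difference of the fasting effects used all 37 mice. The SE is the absolute log2 fold change divided by the square root of F. The other settings were DESeq2 1.42.0 (on genes whose counts sum to more than 10), limma 3.58.1 on mean log2 CPM of the kept columns (prior count 2), other size factors, no filter, kept columns only, clock time, round of cages, cages as the unit, and mice left out; the difference of the fasting effects without mouse 1445 was added after seeing the data. The edgeR, DESeq2 and limma fits were tested on simulated data. Python 3.11.15 with numpy 2.4.6, pandas 2.3.3 and matplotlib 3.10.9 made the tables and figures.

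The 7 genes and all lists were chosen with earlier results of these data known. A few listed genes are not reported here. All 7 are named throughout; of 42 other listed genes, up to 8 called per comparison are named, and other names among them were chosen after their values were seen. Similar genes are the 3 with the highest Pearson correlation of log2 CPM, among genes whose mean log2 CPM is 0 or more. The glucocorticoid score of a column is the mean of log2(CPM + 1) over its 7 genes, relative to the mean of the kept 24 h columns. Mice are separate animals, and those of a 16 h cage shared their food. Reads carry no molecular identifiers.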

Additional observations from a re-analysis of the deposited data

Results flagged for a closer look

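In 10 of 35 sets of mice (7 genes in 5 groups), 1 mouse lay far from the others of its group, by the gap to its nearest neighbour as a share of the range of the group. Chance gives about 1 in 20, but the 7 genes were measured in the same mice. The sets are therefore not independent, and this count is no measure of an excess. Dio3 accounts for 4, each at few counts: HFD mouse 18 at 16 h (0.826 of the range; 2.16 CPM), fasted mouse 8 at 16 h (0.748; 0.763 CPM), chow mouse 1443 at 24 h (0.816; 2.58 CPM) and fasted mouse 1433 at 24 h (0.806; 1.00 CPM). Thrb was set apart in chow mouse 1 at 16 h (0.636; 77.3 CPM) and in chow mouse 1443 at 24 h (0.539 of the range; 52.7 CPM). The highest Thrb and Dio3 values of mouse 1443 came from the same column. Fasted mouse 12 of the 16 h study stood apart for Thra (0.705; 413 CPM) and for Klf9 (0.713; 218 CPM). Klf9 also had fasted mouse 1445 at 24 h (0.514; 352 CPM), the mouse with striatal markers. Hr had chow mouse 6 at 16 h (0.632; 74.7 CPM).

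For 2 genes the fasting effect differed between the 24 h and the 16 h study in a direct test. The difference of the log2 fold changes was 1.08 for Hr and 0.55 for Klf9. Time of day at the start, housing, sequencing run, read length, choice of hemisphere and the fifth region also differ between the studies. They cannot be told apart from duration.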

How the results depend on the processing

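Of 581 values of the 7 genes under other settings, 566 kept their direction and their side of the threshold, 14 changed direction, 1 lost its call and none gained one. Called genes at 24 h ranged from 2614 without mice 1423, 1454 and 1455 to 4213 with DESeq2, and from 2685 to 3725 with 1 mouse left out. At 16 h DESeq2 called 19 genes after fasting and 5 on HFD, against 0 with edgeR, and the cause was not tested. Genes of the 7 whose fasting effect differed between the studies were 2, or 1 without low columns, where Klf9 had 0.53 (adjusted p = 0.0541). Changes of direction touched only values that no setting called. With limma on the mean log2 CPM of kept columns, Thra was -0.0073 and Nrgn -0.268 at 24 h. Hr at 16 h after fasting was -0.0014 with no filter, -0.0534 with limma on column means and -0.0179 with clock time, and -0.104 to 0.0912 with 1 mouse left out. Thrb there was -0.0957 to 0.054, and Dio3 at 24 h was -1.21 to 0.087 with 1 mouse left out. Groups share no replicate numbers. The 3 diets at 16 h share rounds of cages, and with the round as a covariate edgeR called 0 genes in either comparison (2238 after fasting and 2883 on HFD at an unadjusted p under 0.05). Depth limits Dio3 most, at 11 to 187 counts per mouse.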
